A study of Mus musculus with 2 samples.

Results

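The 9 genes Shh, Ptch1, Smo, Gli1, Gli2, Gli3, Hhip, Sufu and Boc of the Sonic hedgehog pathway were read by gene symbol from the expression table of 45777 genes, and each symbol had 1 row. Teratomas were grown for 14 days after subcutaneous inoculation of mouse embryonic stem cells (ESCs) into BALB/c-nu mice, and 1 RNA-seq library was made for each group. The E14 library came from the parental, wild-type ESC line. The E14-Sox2TA/WT library came from E14 cells edited to T258A at 1 Sox2 allele, with the other allele wild type, and selected as clones grown from individual sorted cells, and the number of clones behind the library is not given. Handling in culture also differed, since the edited cells were transfected, sorted and kept for a time with the inhibitors PD0325901 and CHIR99021, which were removed before use, whereas E14 cells are described only as grown in serum and LIF. The genotype and this handling cannot be told apart here. Each group had 3 inoculated mice, and the sources used here do not say whether a library held 1 teratoma or several. The labels name teratoma as the tissue, although their extraction text mentions an ESC line. Host cells are also of mouse origin, so reads of host and donor cannot be told apart.

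Hedgehog signaling carries positional information between tissues. Without ligand, the receptor Ptch1 keeps the transmembrane protein Smo inactive, and Gli2 and Gli3 are processed into repressors with the help of Sufu. When Sonic hedgehog binds Ptch1, Smo enters the primary cilium and full-length Gli factors turn on target genes, among them Gli1, Ptch1 and Hhip. In embryos, Shh from the notochord and floor plate patterns the ventral neural tube, gut epithelium signals to the mesenchyme around it, and the related ligand Ihh acts in the growth plate of cartilage.

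The libraries held 50529171 reads on genes for E14 and 49030281 for E14-Sox2TA/WT. With 1 library per group no difference has a replicate check, and every interval printed here is a 95% interval that reflects the number of reads alone, so it bears on the pair of libraries and not on the genotypes. Sox2 itself had 14585 and 8623 reads, and the table does not separate its alleles. Levels are given as TPM, in which transcript abundances sum to a fixed total per library, and which are scaled by transcript length, so that genes within a library can be set side by side. Unless stated otherwise, each pair of values gives E14 before E14-Sox2TA/WT. A gene was called when its TPM differed by a fold above 2 and the larger of its values reached 10. The ratios on a log2 scale add 1 to each value, and their median was -0.06 by TPM over the 18558 genes whose larger TPM reached 1. It was 0.11 by FPKM, a scaling that does not force the libraries to 1 sum. Less RNA of a gene in bulk tissue can mean fewer cells of a type or less RNA per cell, which cannot be told apart here.

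None of the 9 genes was called. The rule could be applied to the 6 that reached a TPM of 10, and it called 0 of them, while it called 29.5% of the 11578 genes that reached this level (10.8% higher and 18.7% lower in E14-Sox2TA/WT). Gli2, Gli3 and Hhip stayed below a TPM of 10 in both libraries. By direction alone, the ligand Shh, the co-receptor Boc and all 3 Gli factors had higher values in the library of E14-Sox2TA/WT, and the receptor Ptch1, the ligand trap Hhip, Smo and Sufu had lower values. All 9 directions were the same under 5 scalings, and all 9 counting intervals lay on 1 side of no difference. With a fold above 1.5, Ptch1 and Smo were called lower, 2 of 6, against 50.5% of all genes (18.2% higher and 32.3% lower). Above 3-fold, 0 of 6 were called, against 14.5% (5.73% higher and 8.77% lower). When all 9 genes were admitted by a TPM of 1, 4 passed 1.5-fold, Ptch1, Smo and Hhip lower and Gli3 higher, against 57.9% of all genes (27.6% higher and 30.2% lower). The 5 genes with any higher value and the 4 with any lower value stood against 47.5% and 52.5% of all genes. Of these shares, that of any higher value was somewhat above the share of all genes, and the others were near or below. The median log2 ratio of the 9 genes was 0.18, in a range from -0.90 to 0.56, and over the 6 that reached a TPM of 10 it was -0.18. Among all genes with a TPM of at least 1, the ratios of the 9 stood between the 17.6th and the 74.7th percentile, and 7 of them lay between the 25th and the 75th percentile.

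**Figure D1:**
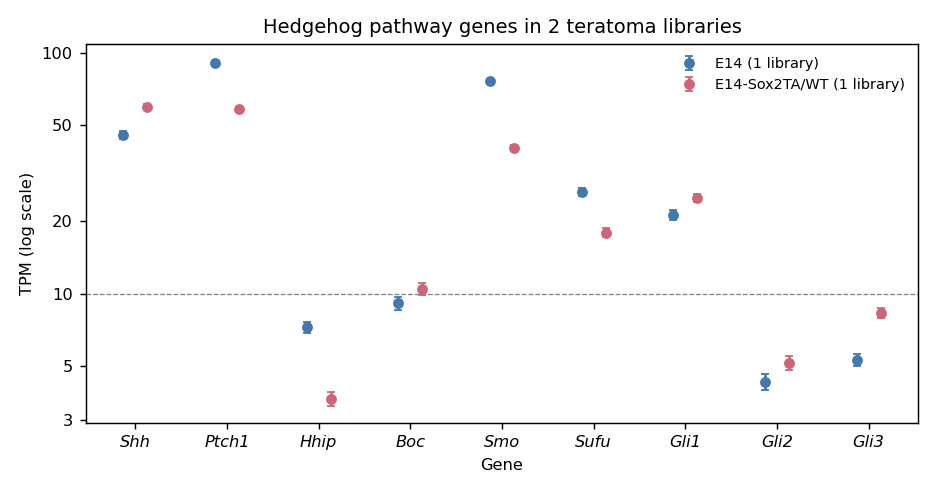
TPM of the 9 hedgehog pathway genes (log axis) in the E14 library (blue) and the E14-Sox2TA/WT library (red), 1 library each, with 95% Poisson counting intervals; the dashed line marks a TPM of 10. Ptch1 was at 90.9 and 58.3 and Smo at 76.1 and 40.4, while Shh was at 45.6 and 59.5.

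The 250 bases before the annotated transcription start are shown for Smo, Hhip, Ptch1 and Gli3, the 4 genes whose TPM differed by more than 1.5-fold, so that 2 classical targets of the Gli factors, Ptch1 and Hhip, stand beside 2 genes upstream in the pathway. The sequences are from RefSeq on GRCm38.p6, written 5′ to 3′ on the strand of the gene, and capitals mark GGGTGG or its complement CCACCC, the core of the Gli recognition sequence.
Smo, plus strand, chr6:29735247-29735496: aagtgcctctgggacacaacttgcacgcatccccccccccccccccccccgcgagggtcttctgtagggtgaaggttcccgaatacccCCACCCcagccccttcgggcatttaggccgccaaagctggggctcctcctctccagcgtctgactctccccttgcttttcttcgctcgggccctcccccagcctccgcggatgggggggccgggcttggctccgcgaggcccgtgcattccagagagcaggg
Hhip, minus strand, chr8:80058009-80058258: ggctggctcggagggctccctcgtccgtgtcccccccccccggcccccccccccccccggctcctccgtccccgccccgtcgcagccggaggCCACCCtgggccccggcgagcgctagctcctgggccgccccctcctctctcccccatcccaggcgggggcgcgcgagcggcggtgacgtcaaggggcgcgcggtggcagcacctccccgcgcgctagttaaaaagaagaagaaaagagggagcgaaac
Ptch1, minus strand, chr13:63565736-63565985: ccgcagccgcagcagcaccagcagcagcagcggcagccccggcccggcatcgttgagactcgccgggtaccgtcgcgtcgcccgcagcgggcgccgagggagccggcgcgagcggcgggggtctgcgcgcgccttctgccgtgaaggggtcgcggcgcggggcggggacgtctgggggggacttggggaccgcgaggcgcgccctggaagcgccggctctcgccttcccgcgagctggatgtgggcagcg
Gli3, plus strand, chr13:15463473-15463722: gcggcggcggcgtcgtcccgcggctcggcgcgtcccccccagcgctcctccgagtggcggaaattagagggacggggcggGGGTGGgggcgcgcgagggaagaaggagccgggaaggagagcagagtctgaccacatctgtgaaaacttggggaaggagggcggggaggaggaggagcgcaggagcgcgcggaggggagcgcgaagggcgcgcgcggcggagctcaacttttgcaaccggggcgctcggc

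The start used for Ptch1 lies 7725 bases inside the outermost end of the gene, and other starts of Ptch1 are not shown. Searched on both strands, the 9-base Gli consensus TGGGTGGTC was in 0 of the 6 windows matched to the 9 genes, and in 0.225% of the 32851 windows of this length in the table. The 8-base part GGGTGGTC, contained in that consensus, was also in 0 of 6 and in 0.703% of all windows. The 6-base core GGGTGG was in the windows of Gli2, Gli3, Hhip and Smo, 4 of 6, and in 28.1% of all windows, and Ptch1 and Sufu held none. The core was thus in the window of a gene with a higher value (Gli3) and of genes with lower values (Smo, Hhip), and a match of letters is not a binding site. All 4 windows were rich in G and C, from 68.4% in Smo to 78.4% in Ptch1, against a median of 52.4% over all windows. The Gli3 window overlaps an exon of the antisense gene Gm6556, which had 11 and 57 reads. Shh, Gli1 and Boc had no entry.

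Shh, the secreted ligand, lies on chromosome 5 of mm10 from 28456840 to 28467101 on the minus strand, with 3 exons. It had a TPM of 45.6 (43.9 to 47.3) and 59.5 (57.7 to 61.3), from 2924 and 4240 reads. The value was thus 1.31-fold higher in E14-Sox2TA/WT (1.24 to 1.37), below the fold of 2. In the order of the 9 genes Shh stood after Ptch1 and Smo in the E14 library. In the E14-Sox2TA/WT library it stood first, but its counting interval overlapped that of Ptch1, so these neighbours did not differ beyond counting error.

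Ihh, a related ligand of chondrocytes and gut epithelium, had the largest difference among the 3 hedgehog ligands. It was at a TPM of 1.14 and 7.53, from 65 and 471 reads, 6.62-fold higher (5.10 to 8.72). Its level never reached 10, so the rule did not apply to it. Dhh, the ligand known from Schwann and Sertoli cells, had 27 and 37 reads, and its ratio of 1.25 (0.739 to 2.13) was within counting error. Of the summed TPM of the 3 ligands, Ihh held 2.42% (1.87% to 3.08%) and 11.2% (10.3% to 12.2%). Shh held 97.0% (96.4% to 97.6%) and 88.3% (87.4% to 89.3%), so Shh was the main ligand transcript of both teratoma libraries.

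Cells that could make these ligands were read from their marker genes, and their part in the ligand values was not tested. Of 10 gut epithelium markers with a TPM of at least 1, 9 had higher values in E14-Sox2TA/WT, against 47.5% of all genes. Their median log2 ratio was 1.74, and 0.16 over the 3 that reached a TPM of 10. Lgals4 was called, at a TPM of 1.33 and 17.6. The abundant epithelial genes Epcam (64.6 and 72.4) and Foxa1 (43.9 and 42.0) were not called. Cdx1 and Cdx2, defining factors of intestine, had 0 reads in the E14 library and 234 and 165 in the other. Of 13 growth plate cartilage markers with a TPM of at least 1, 9 had higher and 4 lower values, against 47.5% and 52.5% of all genes. Their median was 0.73, which was -0.05 over the 7 that reached a TPM of 10. Col2a1, the main cartilage collagen, was at 58.0 and 74.8. Pth1r (15.9 and 38.8) and Ibsp (0.659 and 12.2) were called higher, Mmp13 was at 0.556 and 9.17, and the chondrogenic factors Sox9 (44.1 and 16.9), Sox5 and Sox6 were called lower. Runx2 (0.927 and 2.42) and Sp7 (0.428 and 2.53), factors of hypertrophic chondrocytes and bone, were low in both libraries. Col10a1, a collagen of hypertrophic chondrocytes, had 11 and 326 reads.

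In the floor plate and notochord list the values also divided. T was called higher, at 4.73 and 40.1, and Noto was at 0.186 and 3.74, both factors of the notochord and its precursors. Foxa2, which also marks floor plate and endoderm, was at 35.3 and 57.2 and was not called. Spon1, a secreted product of the floor plate, fell from 129 to 48.2, and the list median was -0.19. The epidermis and hair follicle list, from another tissue that uses Shh, had a median of 0.24. It had 4 higher and 3 lower values, against 47.5% and 52.5% of all genes. Of its 6 genes with a TPM of 10, 3 were called higher and 1 lower, against 10.8% and 18.7% of all genes. Its keratins were called higher, with Krt5 at 25.1 and 127, Krt14 at 8.09 and 58.9 and Krt17 at 23.4 and 53.8, except Krt15, which was at 151 and 178. Trp63, a factor of basal epidermis, was at 6.96 and 6.43. The hair follicle factor Lhx2, which is also a forebrain factor, fell from 50.2 to 1.63 and was called lower. Krt14 and Lhx2 reached a TPM of 10 only in the library where they were high. Of 5 Schwann cell markers with a TPM of at least 1, 2 had higher values and 3 lower, and Sox10 was called lower, at 21.6 and 6.81, while S100b was at 10.2 and 8.64.

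Ligands must be modified and released before they signal. Hhat, which attaches palmitate to hedgehog proteins, was at a TPM of 2.20 and 3.56, and Disp1, which exports the ligand, at 6.35 and 5.87. Of the 6 genes of this list, 1 had a higher value and 5 a lower one, against 47.5% and 52.5% of all genes. Disp2, a relative of Disp1 with expression in neural tissue, fell from 28.9 to 5.13, 5.64-fold (5.25 to 6.06). Scube1, of a secreted family that helps ligand release, was called lower at 20.4 and 9.93, but its fold of 2.06 was 1.79 on FPKM and was then not called. Scube2 was at 2.71 and 1.62 and Scube3 at 13.01 and 8.81, and neither was called. Disp2 and Scube1 were thus the 2 called of the 3 with a TPM of 10, both lower (66.7%, against 18.7% of all genes). Both reached a TPM of 10 in the E14 library alone, where they were high.

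Ptch1, the receptor that binds the ligand and represses Smo, lies on chromosome 13 from 63508328 to 63573460 on the minus strand, with 23 exons. It was the gene of the 9 with the highest level in the E14 library, at a TPM of 90.9 (89.5 to 92.3) from 15979 reads. In the E14-Sox2TA/WT library it was at 58.3 (57.3 to 59.4) from 11452 reads. The level was 1.56-fold lower (1.52 to 1.60), and not called.

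Hhip, a membrane protein that binds hedgehog ligands and takes them away from Ptch1, lies on chromosome 8 from 79965850 to 80058060 on the minus strand, with 13 exons. It had a TPM of 7.24 (6.86 to 7.65) and 3.67 (3.43 to 3.92), the lowest level of the 9 genes there. This was 1.97-fold lower (1.81 to 2.15), and the interval reached past 2. The size of this difference depended on the measure more than for any other of the 9 genes. By reads, 1323 and 874, scaled by library total, Hhip was 1.47-fold lower. The ratio of reads to FPKM, which stands for the transcript length the estimate used, was 1.17 times as high in the E14-Sox2TA/WT library for Hhip, and between 0.989 and 1.003 times as high for the other 8 genes.

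Boc, a co-receptor that holds ligand for Ptch1, lies on chromosome 16 from 44485045 to 44558870 on the minus strand, with 19 exons. It was at a TPM of 9.10 (8.54 to 9.69) and 10.5 (9.88 to 11.0), from 970 and 1244 reads, 1.15-fold higher in E14-Sox2TA/WT (1.05 to 1.25). The other co-receptors also had higher values. Cdon, the paralog of Boc, was at 5.85 and 10.8, 1.84-fold higher (1.71 to 1.99), and the fold of 2.12 on FPKM would be called. Gas1 was at 11.0 and 13.6, and Lrp2, a large endocytic receptor that binds Shh in the forebrain, at 9.15 and 11.2, and neither was called. The share of Boc in the summed TPM of the 4 co-receptors was 25.9% (24.6% to 27.3%) and 22.6% (21.6% to 23.7%), and that of Cdon was 16.7% (15.8% to 17.6%) and 23.4% (22.5% to 24.3%). By TPM, Cdon stood lowest of the 4 in the E14 library. By read counts, which are not divided by length, Gas1 was lowest at 13.2%, and Boc held 15.5% and 13.6%.

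**Figure D2:**
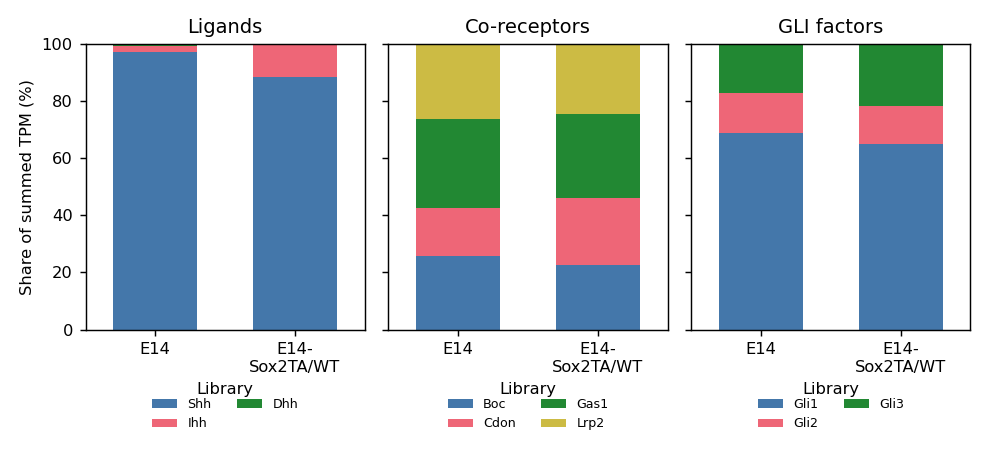
Share of the summed TPM (%) held by each ligand, each co-receptor and each Gli factor in the 2 libraries, stacked to 100% within a library. Ihh held 2.42% of the ligand TPM in E14 and 11.2% in E14-Sox2TA/WT, and Gli3 held 17.2% and 21.7% of the Gli TPM.

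Smo, the transducer that Ptch1 represses, lies on chromosome 6 from 29735497 to 29761366 on the plus strand, with 12 exons. It was at a TPM of 76.1 (74.3 to 77.8) and 40.4 (39.2 to 41.6), from 7309 and 4347 reads. At 1.88-fold lower (1.81 to 1.96) its whole counting interval stayed below 2, and on FPKM the fold was 1.64. A pseudogene row inside Smo, Gm13717, had 22 and 16 reads.

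Sufu, which binds Gli factors and restrains them, lies on chromosome 19 from 46396896 to 46488804 on the plus strand, with 12 exons. It was at a TPM of 26.5 (25.5 to 27.4) and 17.9 (17.2 to 18.7), from 2882 and 2182 reads, 1.47-fold lower in E14-Sox2TA/WT (1.39 to 1.56). In the list of 29 cytoplasmic regulators that includes Sufu, 23 had lower values and 6 higher, against 52.5% lower among all genes with a TPM of at least 1. Since 28 of the 29 reached a TPM of 10, that share is not taken at a like level. On FPKM 20 were lower and 9 higher, with 8259 of 18558 lower among all genes. The list median was -0.54. Of its 28 genes with a TPM of 10, 8 were called lower and 0 higher, 28.6% against 18.7% lower and 29.5% in either direction among all genes. Of these 8, 2 (Gpr161 and Evc) reached a TPM of 10 in the E14 library alone, where they were high.

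The regulators called lower included several that favour Gli repressors. Gpr161, a ciliary receptor that raises cAMP, fell from a TPM of 22.2 to 5.997, 3.70-fold (3.46 to 3.96). Prkaca and Prkacb, catalytic subunits of protein kinase A, which primes Gli2 and Gli3 for processing, fell from 150 to 61.6 and from 97.1 to 38.8. Gsk3b (49.3 and 24.2), Btrc (23.6 and 10.9), Evc (17.5 and 7.79) and Mgrn1 (90.1 and 42.1) were called on TPM. On FPKM the number called lower was 4, among them Prkaca, Prkacb and Gpr161. The most abundant regulators were not called, with Prkar1a at 201 and 147, Csnk1a1 at 147 and 136 and Csnk1d at 140 and 83.1, and Csnk1a1 was higher on FPKM, at 63.1 and 67.1.

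Genes of the primary cilium, the organelle in which Smo acts, had much the same distribution. Of 28 genes, 24 had lower values and 4 higher, with a median of -0.53, against 52.5% lower among all genes with a TPM of at least 1. Since 26 of the 28 reached a TPM of 10, that share is not taken at a like level. On FPKM 20 were lower and 8 higher, with 8259 of 18558 lower among all genes. With TMM factors 21 were lower and 7 higher, with 9225 of 18558 lower among all genes. Of the 26 with a TPM of 10, 5 were called lower, 19.2%, near the 18.7% of all genes. Of these 5, 3 reached a TPM of 10 in the E14 library alone, where they were high. Kif3a and Kif3b, motor subunits that move cargo out along the cilium, fell from 71.1 to 27.3 and from 37.5 to 15.9. Ift122, of the complex that returns cargo, fell from 21.0 to 7.40. Kifap3 was at 75.1 and 38.0 and B9d1 at 96.2 and 88.1, and neither was called. Kinesins and protein kinase A are also abundant in neurons, and the 8 neuronal markers fell together in the same library. Their summed TPM was 2601 in E14 and 371 in E14-Sox2TA/WT, with Tubb3 at 1722 and 170, Stmn2 at 451 and 121, Map2 at 133 and 28.6 and Syt1 at 50.8 and 5.53, and the part of neurons in the lower values of Disp2 and of these regulators was not tested. The 6 macrophage markers all had higher values, against 47.5% of all genes, with a summed TPM of 798 and 1414. Lyz2 (457 and 943) was called, while C1qa (150 and 215), C1qb (121 and 155) and Cd68 (38.8 and 62.0) were not.

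**Figure D3:**
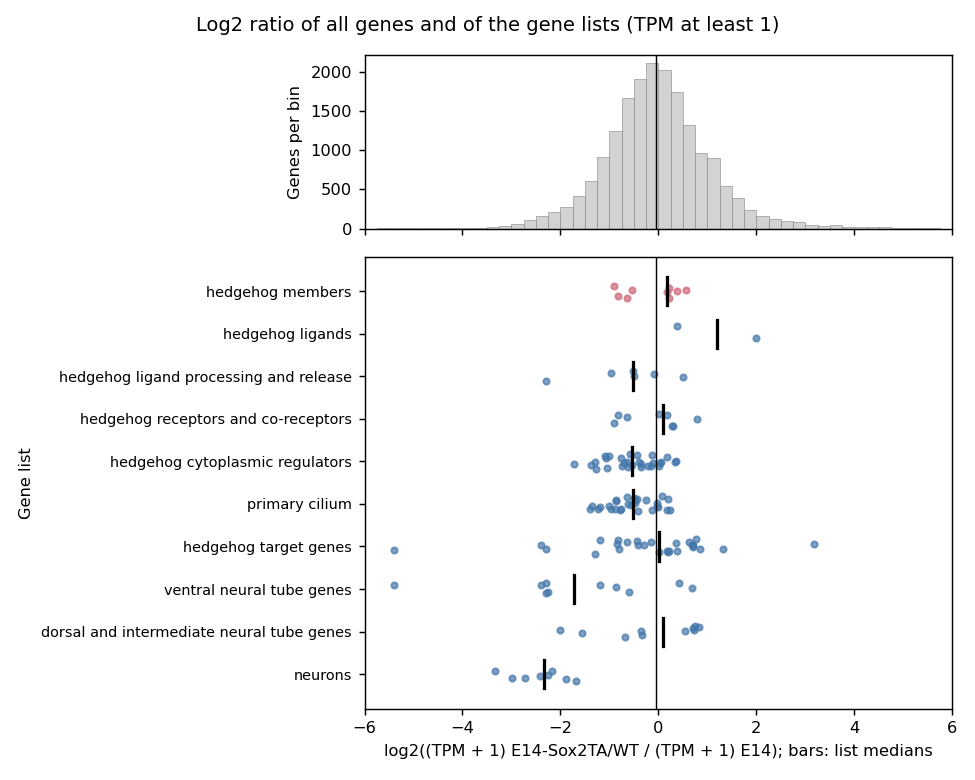
Histogram of the log2 ratio of all genes with a TPM of at least 1 (top) and the ratio of each gene in the hedgehog and neural lists (bottom, 1 point per gene, points shifted vertically for visibility), where short bars are list medians and the long line is the median of all genes at -0.06. The 9 hedgehog genes in red lie between -0.90 and 0.56, and the 8 neuronal genes all lie at or below -1.69.

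Gli1, a target of the pathway that acts only as an activator, lies on chromosome 10 from 127329882 to 127341579 on the minus strand, with 13 exons. It was at a TPM of 21.2 (20.2 to 22.2) and 24.9 (24.0 to 26.0), from 1867 and 2455 reads, 1.18-fold higher (1.11 to 1.25). The gene Arhgap9, which overlaps it, had 76 and 270 reads, and the strand setting of the counting is not given in the sources used here.

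Gli2, the main activator downstream of Smo, lies on chromosome 1 from 118834061 to 119054405 on the minus strand, with 14 exons. It was the lowest of the 3 factors, at 4.30 (3.98 to 4.63) and 5.14 (4.82 to 5.48) from 694 and 928 reads, 1.20-fold higher (1.08 to 1.32). Gli3, the main source of Gli repressor, lies on chromosome 13 from 15463723 to 15730026 on the plus strand, with 15 exons. It was at 5.31 (4.99 to 5.64) and 8.32 (7.94 to 8.70) from 1065 and 1842 reads, 1.57-fold higher (1.45 to 1.69), the largest ratio among the 5 genes with higher values.

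The mix of the 3 Gli transcripts differed between the libraries. Gli1 held 68.8% (67.4% to 70.2%) of their summed TPM and 65.0% (63.7% to 66.2%). Gli3 held 17.2% (16.2% to 18.3%) and 21.7% (20.7% to 22.6%), whereas the shares of Gli2, 13.95% (12.97% to 14.98%) and 13.4% (12.6% to 14.2%), had overlapping intervals. These are transcript shares and do not tell full-length Gli3 from its processed repressor, which is made from the protein.

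Ratios of 2 genes within a library do not depend on how the libraries are scaled to each other. Gli1, Ptch1 and Hhip are all targets of the pathway, but their ratios differed in direction. Ptch1 was at 4.29 times the TPM of Gli1 and 2.34 times, 1.84-fold lower (1.72 to 1.96). Hhip relative to Gli1 was 2.33-fold lower (2.09 to 2.58), and 1.99-fold lower by reads. Gli1 relative to Sufu, its restraint, went from 0.800 to 1.39, 1.74-fold higher (1.60 to 1.89). Smo relative to Shh went from 1.67 to 0.679, 2.46-fold lower (2.31 to 2.61), the largest difference among the 13 pairs formed. Gli1 relative to Gli2 was at 4.93 and 4.85, and this difference was within counting error.

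**Figure D4:**
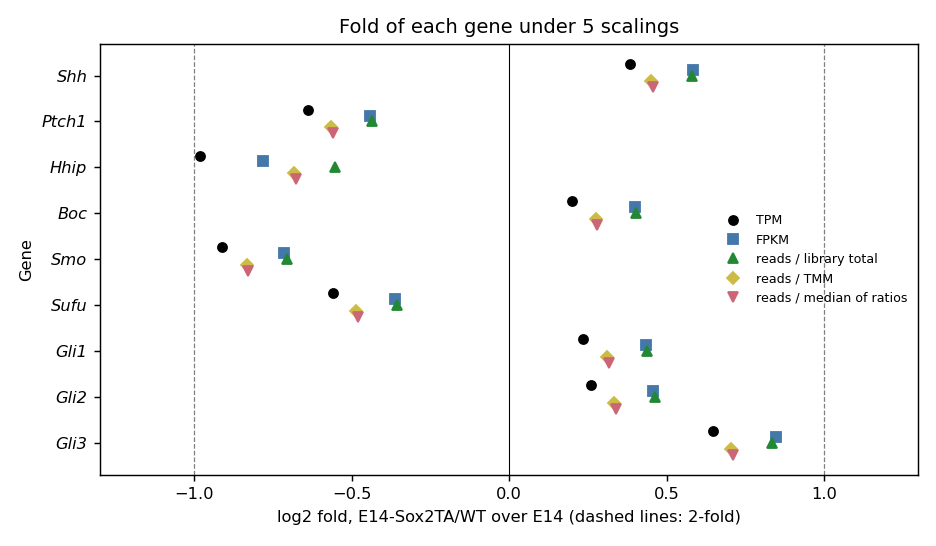
Log2 fold of each of the 9 genes, E14-Sox2TA/WT over E14, by 5 scalings of the same 2 libraries, with dashed lines at 2-fold. All markers of a gene lie on 1 side of 0 and none passes a dashed line, and the markers of Hhip are spread the widest.

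The list of hedgehog target genes, which includes Gli1, Ptch1 and Hhip, had no common direction. Of 27 genes, 14 had higher values and 13 lower, with a median of 0.02, and 5 of the 13 with a TPM of 10 were called, all lower (38.5%, against 18.7% of all genes called lower). Of these 5, 4 reached a TPM of 10 in the E14 library alone, where they were high, and the median over the 13 was -0.63. These were Nkx2-2, Nkx6-1, Olig2 and Nkx2-1, factors of the ventral neural tube and forebrain, and Cntfr. Nkx2-1 fell from 74.2 to 0.789. The cell cycle genes Ccnd1 (126 and 92.6), Ccnd2 (109 and 80.8) and Mycn (41.2 and 53.7) were not called.

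In the gut mesenchyme list, 6 of the 7 genes that reached a TPM of 1 had higher values, against 47.5% of all genes. The list median was 0.62, and 0 of the 1 with a TPM of 10 was called. Foxf1, a factor of gut and lung mesenchyme that responds to epithelial ligand, was at a TPM of 1.76 and 5.89, 3.35-fold higher (2.69 to 4.21). Foxf2 was at 5.72 and 9.36, and Foxl1 at 1.36 and 2.84, and none of these 3 reached 10. In the list of target genes, Hand2 was at 1.06 and 2.70. Hoxd13, a distal limb and hindgut gene, had 0 reads in E14 and 554 in E14-Sox2TA/WT, at least 190-fold higher by reads scaled by library total, taking 3 reads as the limit that a count of 0 allows. Pdgfra, a receptor of many mesenchymal cells, was at 21.6 and 26.1 and was not called. Nkx2-3, of gut mesenchyme, went the other way, at 9.43 and 0.669.

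In the neural tube, graded Shh activates ventral factors and confines dorsal ones. Of 10 ventral genes, 8 had lower values, against 52.5% of all genes, and the list median was -1.73. Of the 8 with a TPM of 10, 6 were called, all lower (75%, against 18.7% of all genes). Of these 6, 5 reached a TPM of 10 in the E14 library alone, where they were high. Olig1 fell from 88.2 to 17.6, Olig2 from 50.2 to 9.38, Nkx2-2 from 36.3 to 6.11, Nkx6-2 from 36.1 to 6.57 and Nkx6-1 from 21.8 to 8.95. Sim1 was at 2.36 and 0.837 and Ntn1, a guidance cue of the floor plate, at 172 and 113, and neither was called. Foxa2 and Nkx2-9, factors of the most ventral cells, had higher values, with Nkx2-9 at 6.53 and 9.06.

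The dorsal and intermediate genes had no common direction, with 5 of 10 higher and 5 lower and a median of 0.10, and of -0.34 over the 3 with a TPM of 10. Dbx1, of intermediate progenitors, fell from 31.4 to 7.03. Pax6 was at 9.72 and 2.62, Pax7 at 1.18 and 0.351, Dbx2 at 6.32 and 4.74 and Irx3 at 13.9 and 10.7. Pax3 (5.38 and 8.34), Msx1 (9.19 and 15.8), Msx2 (2.02 and 4.05), Msx3 (2.02 and 4.35) and Olig3 (2.45 and 4.66), which mark dorsal progenitors or neural crest, had higher values. Atoh1 had 4 and 11 reads, too few to compare. Shh had a higher value in the same library in which 8 of the 10 ventral genes had lower ones, and Foxa2 and Nkx2-9 had the direction of Shh. The neuronal markers named above were lower as well, and the part of the neural tissue content in the ventral values was not tested.

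The median ratio of all genes on a chromosome was taken beside each of the 9 genes. On chromosome 8, which holds Hhip, the median log2 ratio was -0.48 over 925 genes, and Hhip at -0.82 was 0.34 below it. On chromosome 13 the median was 0.20 over 760 genes, and 0.060 over those with a TPM of 10. Gli3, at 0.56, lay below the 0.79 median of the 39 genes in its window from 10000001 to 20000000. Ptch1, on the same chromosome, was at -0.63 in a window with a median of 0.45. For the other 6 genes the chromosome medians ran from -0.10, on chromosome 5 with Shh, to -0.0028, and with a TPM of 10 that of chromosome 5 was -0.25. Copy number was not measured, so its part in the values of Hhip and Gli3 was not tested.

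**Figure D5:**
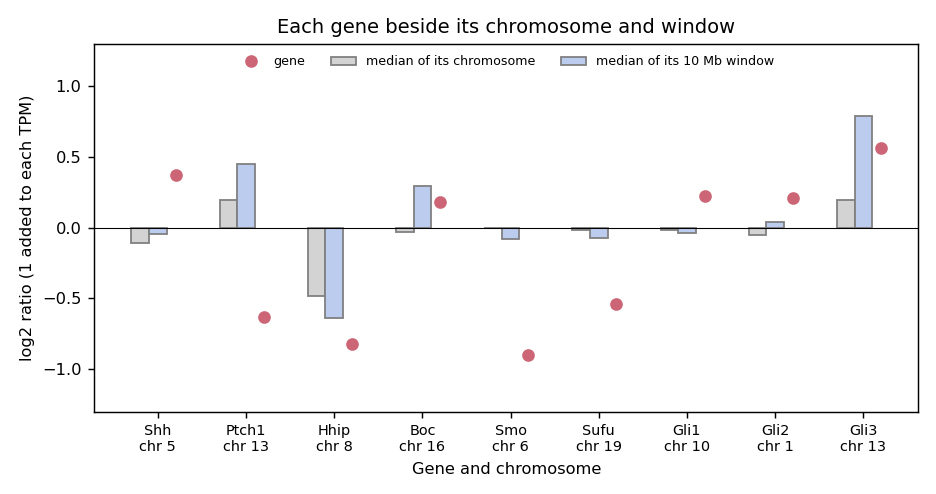
Log2 ratio of each of the 9 genes (points, with 1 added to each TPM) beside the median of all genes with a TPM of at least 1 on its chromosome (grey bars) and in the 10 Mb window that holds its lower coordinate (blue bars). Hhip, Gli3, Smo and Sufu lie on the side of both medians, and Shh, Gli1 and Ptch1 lie opposite to both. Ptch1 is at -0.63, with 0.45 for its window. Gli2 and Boc lie on the side of the window median only.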

How the data were processed

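RNA-seq was performed on polyA RNA from 1 E14 and 1 E14-Sox2TA/WT teratoma library. The submitters' processing notes name bcl2fastq 2.20.0, Trimmomatic, HISAT2 2.1.0 and StringTie 2.1.3b, and a mouse (mm10) and a human genome build, without roles or strand setting. For every gene the authors deposited unnormalised read counts, FPKM and TPM, and the deposited FPKM and TPM are scaled by transcript length. Of 45777 NCBI gene identifiers, 45675 matched RefSeq GRCm38.p6, the same build, which gave positions, and GENCODE gave exons.

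The fold was the ratio of TPM, and the rule for calls (a fold above 2, the larger TPM being 10 or more) follows the study's methods. Fold intervals were taken from the read counts (Clopper-Pearson, 95%), rescaled to the TPM ratio, and intervals of a ratio of 2 genes are on the log scale from the counts. List medians used genes with a TPM of at least 1 and a pseudocount of 1. With 1 library per group, p-values were not computed. The 9 genes and 17 lists were chosen by hand with earlier results of these data known. Genes named were the 9, the ligands, release factors, receptors and neural tube genes, and in other lists mainly the 3 with the highest mean TPM and the 2 with the largest change. Other genes, among them those called in a list, the regulators, Foxl1, Foxf2, Hand2, Mycn, Col10a1, Runx2, Sp7, Trp63, Cdx2 and Kif3b, were added after values were seen. Some genes of the lists are counted but not reported by name here. Calls were tested on simulated data. Alternatives covered fold, filter, pseudocount, FPKM, read counts scaled by total, by TMM (edgeR 4.0.16) or by median-of-ratios size factors, and chromosome medians. Scripts ran in R 4.3.3 and Python 3.11.15, with scipy 1.17.1, pandas 2.3.3 and numpy 2.4.6.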

Additional observations from a re-analysis of the deposited data

How the results depend on the processing

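No paired analysis was possible because each group holds a single library, and for the same reason no library could be left out. The number of hedgehog genes called was 0 higher and 0 lower under every alternative except a fold above 1.5, which called 2 lower, Ptch1 and Smo. Over all genes, 1253 higher and 2167 lower became 2109 and 3742 above 1.5-fold, 663 and 1015 above 3-fold, 3585 and 3508 when the larger TPM had to reach 1, and 9156 and 6015 with no filter, settings that change the threshold or the genes tested. The share of lower calls, 63.4% on TPM, was 51.1% on FPKM, 50.9% with library totals, 59.3% with TMM factors, 59.0% with median-of-ratios size factors, 49.5% when the larger TPM had to reach 1 and 39.6% with no filter. Restricting lists to a TPM of 10 turned the sign of 4 list medians, those of the 9 hedgehog genes (0.18 to -0.18), the target genes (0.02 to -0.63), the dorsal and intermediate genes (0.10 to -0.34) and growth plate cartilage (0.73 to -0.05), and no other alternative turned one. Shares by read counts, which are not divided by length, were 51.5% and 47.0% for Gli1, 19.1% and 17.8% for Gli2 and 29.4% and 35.3% for Gli3 in E14 and E14-Sox2TA/WT. By reads Shh held 89.3% and Ihh 9.92% of the ligands in E14-Sox2TA/WT, and Dhh held 0.895% and 0.779%. Co-receptor shares by reads were 15.5% and 13.6% for Boc, 17.0% and 22.8% for Cdon, 13.2% and 12.6% for Gas1 and 54.3% and 51.0% for Lrp2. With a TPM of at least 10, chromosome medians were -0.25 for 5, 0.060 for 13, -0.18 for 6, -0.079 for 10, -0.14 for 1, -0.67 for 8, -0.14 for 19 and -0.12 for 16, and chromosome 8 was at -0.54 with a pseudocount of 0.1. The cause of these shifts was not tested. Of 45 alternative folds of the 9 genes, 29 moved beyond counting error and none changed sign.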
